A study of Homo sapiens with 18 samples.

Results

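The 8 genes described here are *ID1*, *ID2*, *ID3* and *ID4*, the inhibitors of DNA binding, and *SMAD6*, *SMAD7*, *SKI* and *SKIL*, which restrain SMAD signalling. They were chosen by name, through their Entrez gene IDs, out of 23604 genes listed in at least 1 RNA-Seq library. Earlier results of these data were known at that choice. All 8 were listed, and 6 of them passed the filter on low counts and were tested. *ID4* and *SMAD6* did not pass it. RNA-Seq and RNAPII ChIP-Seq were made from MCF10A-ErSrc, an untransformed human breast epithelial line that carries the oncogene v-Src as a tamoxifen-inducible fusion. Without tamoxifen, NT cells were given DMSO and NT + TPL cells 0.125 µM triptolide (TPL) for 4 h. TAM cells were transformed with 2 µM tamoxifen and incubated with DMSO, and TAM + TPL cells received tamoxifen and the same dose of TPL. TPL is a small molecule that binds XPB, a subunit of the transcription and repair factor TFIIH. All 4 groups are cultures of the same v-Src line, so an effect of tamoxifen apart from v-Src cannot be told apart from transformation. The series holds 18 samples, with 8 RNA-Seq libraries (2 biological replicates in each group), 8 samples of RNAPII ChIP-Seq and 2 of input DNA.

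ID proteins are helix-loop-helix proteins without a DNA-binding region. They pair with E proteins such as TCF3 and TCF12 and keep them, and their tissue-restricted bHLH partners, off E-box DNA. BMP receptors activate *ID* transcription through SMAD1, SMAD5 and SMAD4, and TGF-beta signals through SMAD2, SMAD3 and SMAD4. SMAD7 and SMAD6 are inhibitory SMADs that block activated receptors and recruit ubiquitin ligases to them, and the nuclear proteins SKI and SKIL (SnoN) bind SMADs and recruit corepressors. *SMAD6*, *SMAD7* and *SKIL* are themselves induced by SMADs as feedback genes. In breast epithelium ID proteins are known for keeping cells proliferating and undifferentiated.

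The RNA-Seq libraries held between 7461309 and 8349448 expected counts. Levels are given in FPKM, fragments scaled to transcript length and to the mapped total of the library, which allows levels of different genes to be compared. Differences are log2 fold changes from edgeR's quasi-likelihood test on the expected counts, with Benjamini-Hochberg adjustment over 16948 genes. They are given ± SE. Since edgeR gives no SE for this test, it was taken as the size of the log2 fold change divided by the square root of the F statistic. This SE is an approximation. "Rose" and "fell" stand for an adjusted p of at most 0.05, and the stricter thresholds of the study's methods require an adjusted p no higher than 0.001 and a change of 1.2 or more, up or down, on the log2 scale. A rise or fall is relative to the other RNA of the libraries, to which counts were scaled. The amount of RNA per cell was not measured here. The biological coefficient of variation was 0.315. Breast epithelial markers were listed in all libraries. *KRT5* lay between 434.04 and 6249.55 FPKM, *KRT14* between 91.16 and 603.88, *CDH1* between 41.30 and 138.56 and *EPCAM* between 24.16 and 61.67. *LAMB3* lay between 26.96 and 487.78 FPKM and *TP63* between 0.28 and 24.19. They moved with the groups, with mean *TP63* at 18.4 FPKM in NT, 0.46 with TPL, 23.6 in TAM and 0.735 with TPL, mean *LAMB3* at 276, 34.8, 442 and 303 FPKM and mean *KRT14* at 552, 136, 163 and 114 FPKM in the same order. *EPCAM* was higher with TPL in both cell states, with means of 24.6, 33.4, 39.3 and 56.4 FPKM. Of the leukocyte markers, *CD3E* reached 0.17 FPKM and *PTPRC* 2.14 FPKM, whereas *CD68* lay between 47.06 and 472.93 FPKM and *LYZ* between 17.87 and 47.22 FPKM. Endothelial *CDH5* was at 0, *VWF* reached 0.04 FPKM, *KDR* 0.72 and *PECAM1* 1.69, and of the fibroblast markers *PDGFRB* reached 0.09 FPKM, *LUM* 0.29, *COL1A2* 1.15, *COL1A1* 6.14 and *DCN* 6.69. *CD68* also moved with the groups, with means of 47.1 FPKM in NT, 83 with TPL, 291 in TAM and 440 with TPL, and the part of these markers in the results was not tested. In a bulk library a gene whose RNA is lower in every cell and a smaller number of cells that make it cannot be told apart. Scaling to equal *GAPDH* moved the median log2 fold change over the genes tested from 0.09 to -0.26 for TPL in NT cells, from 0.05 to -0.07 for TPL in TAM cells and from -0.03 to -0.5 for TAM against NT cells. Upper quartile scaling moved it to 0.31 and 0.29 for TPL in NT and TAM cells. Of the calls with TPL, 46.5% were higher in NT cells and 43.5% in TAM cells, beside 60.9% and 61.1% with upper quartile and 23.7% and 34.7% with *GAPDH* scaling. Library strandedness is not given in the sources used here, and the exons of the canonical transcripts of the 8 genes overlap those of no other gene. All positions are on hg19.

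The promoters of the 4 members with a listed RNAPII peak over the TSS are shown, because RNA and peaks are compared at these genes below. Each run is the 250 bases before the start site, 5′ to 3′ on the strand of the gene, from the RefSeq promoter table (GRCh38.p14), matched exactly to hg19 for its coordinates. Capitals mark, on either strand, the TATA box TATAAA, the box named for its letters CCAAT, the SMAD box CAGAC and the BMP-type SMAD site GGCGCC. Positions count from the start site to the first base of a match. The hg19 positions are chr20:30192842-30193091 on the plus strand for *ID1*, chr2:8821936-8822185 on the plus strand for *ID2*, chr1:23885993-23886242 on the minus strand for *ID3*, and chr3:170075253-170075502 on the plus strand for *SKIL*.
ID1: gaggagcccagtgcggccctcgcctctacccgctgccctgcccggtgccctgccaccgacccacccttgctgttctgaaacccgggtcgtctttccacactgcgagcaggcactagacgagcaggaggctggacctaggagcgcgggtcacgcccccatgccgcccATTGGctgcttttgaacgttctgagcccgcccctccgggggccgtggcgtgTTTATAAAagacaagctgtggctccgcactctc
ID2: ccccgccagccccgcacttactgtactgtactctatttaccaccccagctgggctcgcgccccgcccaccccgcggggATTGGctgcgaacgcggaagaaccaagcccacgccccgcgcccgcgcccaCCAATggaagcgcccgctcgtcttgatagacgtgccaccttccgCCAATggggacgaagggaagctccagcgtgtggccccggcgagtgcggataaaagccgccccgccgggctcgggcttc
ID3: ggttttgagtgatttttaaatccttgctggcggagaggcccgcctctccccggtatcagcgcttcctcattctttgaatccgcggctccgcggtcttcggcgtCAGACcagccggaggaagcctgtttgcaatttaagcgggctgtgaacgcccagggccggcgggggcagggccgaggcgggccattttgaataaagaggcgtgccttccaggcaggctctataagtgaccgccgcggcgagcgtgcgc
SKIL: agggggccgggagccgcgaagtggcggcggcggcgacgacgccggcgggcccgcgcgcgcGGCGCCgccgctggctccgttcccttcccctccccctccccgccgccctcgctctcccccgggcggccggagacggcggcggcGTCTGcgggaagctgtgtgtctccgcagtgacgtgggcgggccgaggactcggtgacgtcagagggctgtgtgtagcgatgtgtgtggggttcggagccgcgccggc

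*ID1* held 2 overlapping TATAAA matches, on opposite strands, at -33 and -31 from the start, and CCAAT at -84. *ID2* held CCAAT 3 times, at -172, -122 and -78. *ID3* held CAGAC at -147, which overlaps a match of TGACG, part of the cAMP response element, at -150. *SKIL* held GGCGCC at -190, CAGAC at -107 and TGACG 3 times, at -79, -54 and -51. Of 27305 promoters of the same table, in windows of 250 bases before to 50 after the start, 12% held TATAAA and 35.7% held CCAAT, 45% held the SMAD box, 19% the BMP-type site and 25% the response element part TGACG. The E-box CANNTG was matched once in the *ID2* window, at -205, and 68.9% of promoters held it. These matches are letters in a window and not shown sites of binding.

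The *ID* genes responded to TPL in different directions. *ID2* rose in NT and TAM cells, *ID1* fell in TAM cells, and *ID3* fell in NT cells and rose in TAM cells. In TAM cells without TPL nearly all *ID* RNA was *ID1*, and with TPL *ID2* was the most abundant of them.

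*ID1* (chr20:30193086-30194318, plus strand, 2 exons in its canonical transcript) measured 90.63 and 77.58 FPKM in the NT libraries, 45.80 and 70.90 with TPL, 97.76 and 102.52 in the TAM libraries and 21.62 and 20.29 with TPL. The TAM + TPL libraries lay below all others and no 2 groups overlapped, although the NT + TPL libraries stood far apart. TPL lowered *ID1* in TAM cells by a log2 fold change of -2.33 ± 0.239 (adjusted p = 0.000926). In NT cells the log2 fold change was -0.52 ± 0.225 (adjusted p = 0.108), and it was -0.88 (adjusted p = 0.0137) without the second NT + TPL library and -0.86 (adjusted p = 0.0388) with *GAPDH* scaling.

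*ID2* (chr2:8818975-8824591, plus strand, 3 exons) measured 16.47 and 19.42 FPKM in the NT libraries, 46.48 and 49.68 with TPL, 3.01 and 1.98 in the TAM libraries and 33.18 and 33.07 with TPL. The groups did not overlap, and their order was TAM, NT, TAM + TPL and NT + TPL from lowest to highest. The rise with TPL was 1.42 ± 0.193 on the log2 scale in NT cells (adjusted p = 0.00221) and 3.68 ± 0.226 in TAM cells (adjusted p = 0.000284). The neighbours at the top of that order, TAM + TPL and NT + TPL, differed by -0.57 ± 0.188 on the log2 scale, which did not pass the test (adjusted p = 0.14).

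*ID3* (chr1:23884417-23885992, minus strand, 3 exons) measured 40.38 and 40.25 FPKM in the NT libraries, 18.60 and 17.68 with TPL, 2.61 and 2.80 in the TAM libraries and 5.60 and 5.24 with TPL. Replicates lay close together, and the 4 groups were separate. With TPL it changed by -1.16 ± 0.153 on the log2 scale in NT cells (adjusted p = 0.00197) and by 0.95 ± 0.176 in TAM cells (adjusted p = 0.00774). Averaged over NT and TAM cells the change was -0.10 ± 0.118 (adjusted p = 0.497). The rise in TAM cells did not pass when the first TAM library (adjusted p = 0.0538) or the first TAM + TPL library (adjusted p = 0.0513) was left out, or in a fit of these 2 groups alone (adjusted p = 0.0542).

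*ID4* (chr6:19837601-19842428, plus strand, 3 exons) had no count in 7 libraries and 2 counts, 0.07 FPKM, in the first TAM + TPL library. A count of 0 allows up to 3 counts, so a change of *ID4* was not detectable at this depth.

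**Figure D1:**
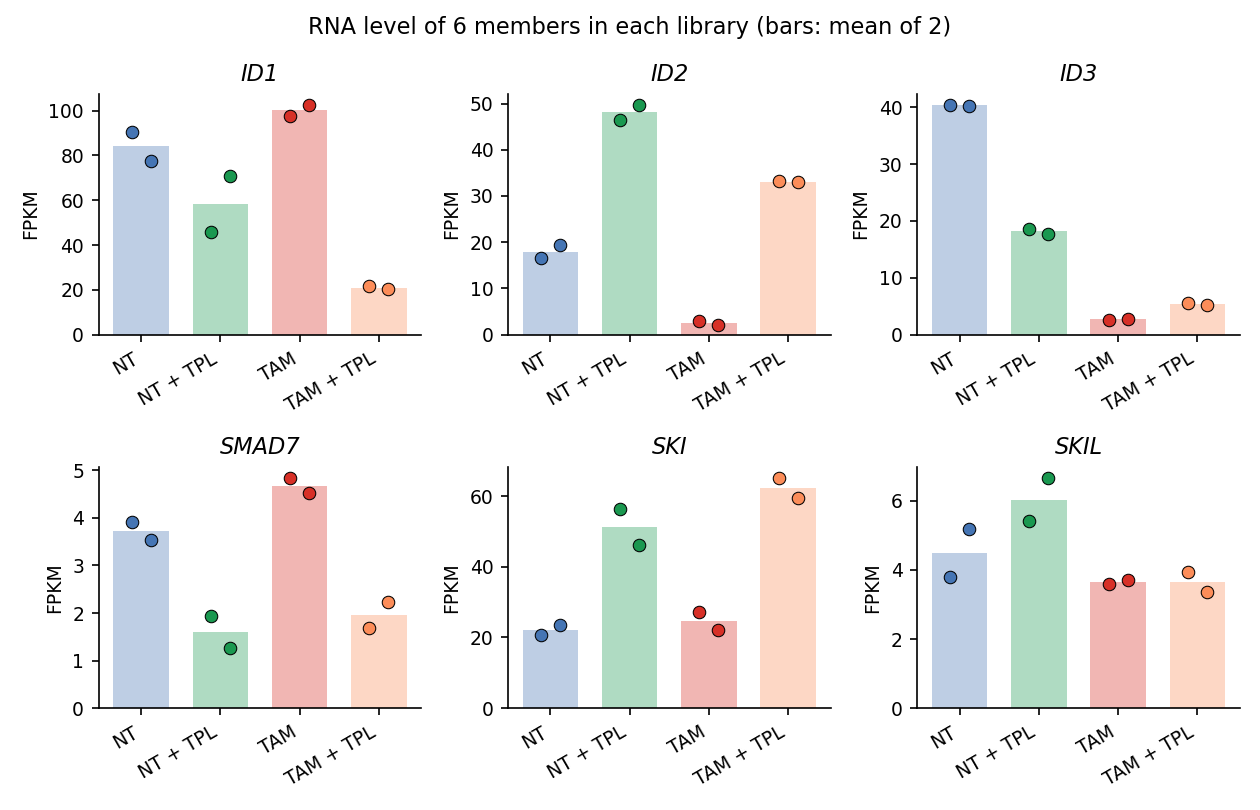
FPKM (y axis, linear from 0) of the 6 tested members in each group (x axis), with points for the 2 libraries and bars for their mean. *ID2* drops to 3.01 and 1.98 FPKM in TAM and stands at 33.18 and 33.07 in TAM + TPL, *ID3* stays below 6 FPKM in both tamoxifen groups, and *SKI* is higher in all 4 TPL libraries than in the 4 without TPL.

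The makeup of *ID* RNA shifted with tamoxifen and with TPL. Of the summed FPKM of *ID1* to *ID4*, *ID1* took 61.5 and 56.5% in the NT libraries, 41.3 and 51.3% with TPL, 94.6 and 95.5% in the TAM libraries and 35.8 and 34.6% with TPL. The share of *ID2* was 11.2 and 14.1% in NT libraries, 41.9 and 35.9% with TPL, 2.91 and 1.85% in TAM libraries and 54.9 and 56.4% with TPL. *ID3* took 27.4 and 29.3% in NT and between 2.52 and 16.8% in the other libraries. The summed level was 147 and 137 FPKM in NT libraries, 111 and 138 with TPL, 103 and 107 in TAM libraries and 60.5 and 58.6 with TPL. The TAM + TPL libraries thus had the lowest sum and the highest *ID2* share.

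**Figure D2:**
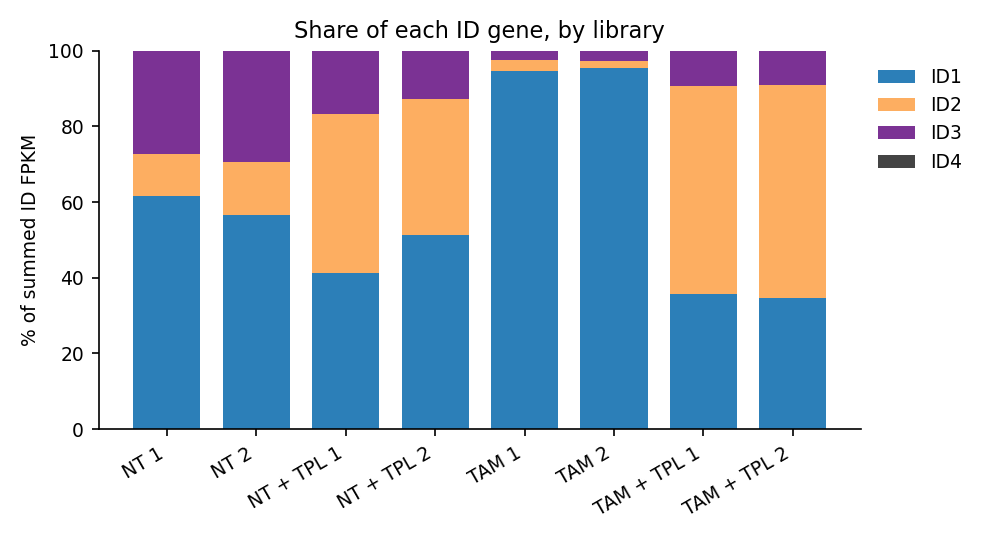
Share of *ID1*, *ID2*, *ID3* and *ID4* in their summed FPKM (y axis, percent) in each of the 8 libraries (x axis). *ID1* takes 94.6 and 95.5% in the TAM libraries, and *ID2* takes 54.9 and 56.4% in the TAM + TPL libraries.

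The repressors of SMAD signalling also divided. In each cell state *SMAD7* fell with TPL, *SKI* rose and *SKIL* did not pass the test, although with upper quartile scaling *SKIL* passed in NT cells.

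*SMAD7* (chr18:46446223-46477335, minus strand, 4 exons) measured 3.91 and 3.54 FPKM in the NT libraries, 1.93 and 1.26 with TPL, 4.83 and 4.53 in the TAM libraries and 1.68 and 2.24 with TPL. The 4 TPL libraries lay below the 4 others. The log2 fold change with TPL was -1.18 ± 0.343 in NT cells (adjusted p = 0.0337) and -1.32 ± 0.341 in TAM cells (adjusted p = 0.0256), and averaged over the cell states it was -1.25 ± 0.242 (adjusted p = 0.0051). With 1 library left out, the call in NT cells was lost for all but the first NT + TPL library, with an adjusted p of up to 0.112, and the call in TAM cells was lost without either TAM or either TAM + TPL library, with an adjusted p of up to 0.144. The averaged fall kept an adjusted p of at most 0.0248 whichever library was left out.

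*SMAD6* (chr15:66994574-67075187, plus strand, 4 exons) had 1 count in each NT library, 5 and 7 in NT + TPL, 0 in both TAM libraries, and 3 and 5 in TAM + TPL. Its highest level was 0.32 FPKM. The TPL libraries held more counts than the others, at a depth that gives no test. They also listed more genes in all, between 19584 and 20156, beside between 18485 and 18566 in the libraries without TPL.

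*SKI* (chr1:2158827-2241652, plus strand, 7 exons) measured 20.71 and 23.65 FPKM in the NT libraries, 56.43 and 46.27 with TPL, 27.23 and 22.19 in the TAM libraries and 65.02 and 59.39 with TPL. All TPL libraries lay above all libraries without TPL, while the NT and TAM libraries overlapped. The rise was 1.2 ± 0.16 on the log2 scale in NT cells (adjusted p = 0.00201) and 1.28 ± 0.16 in TAM cells (adjusted p = 0.0018).

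*SKIL* (chr3:170075130-170114623, plus strand, 7 exons) measured 3.81 and 5.20 FPKM in the NT libraries, 5.43 and 6.65 with TPL, 3.59 and 3.71 in the TAM libraries and 3.93 and 3.37 with TPL. In NT cells the groups were separate by a small margin, and in TAM cells they overlapped. The log2 fold change was 0.41 ± 0.208 (adjusted p = 0.16) in NT cells and -0.04 ± 0.211 (adjusted p = 0.906) in TAM cells. With upper quartile scaling *SKIL* was at 0.64 in NT cells (adjusted p = 0.0427) and at 0.42 averaged over the cell states (adjusted p = 0.0419). The ratio of *SKI* to *SKIL* FPKM was 5.44 and 4.55 in NT libraries, 10.4 and 6.96 with TPL, 7.58 and 5.98 in TAM libraries and 16.5 and 17.6 with TPL, so the paralogues parted most in TAM + TPL cells.

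Of the 6 members tested, 2 rose with TPL in NT cells (*ID2* and *SKI*) and 2 fell (*ID3* and *SMAD7*), where 17.2% of all genes tested rose and 19.8% fell. At the study's thresholds, applied here to edgeR's test, none of the 6 was called in NT cells, beside 3.93% of all genes. The unadjusted p was under 0.05 for 4 of them. These are not the study's own calls, and the paper names *ID2* and *SKI* among genes overexpressed with TPL. In TAM cells 3 members rose (*ID2*, *ID3* and *SKI*) and 2 fell (*ID1* and *SMAD7*), beside 14.3% and 18.6% of all genes. *ID1* and *ID2* passed the study's thresholds there, as did 2.88% of all genes. Averaged over NT and TAM cells, 2 rose (*ID2*, by 2.55 ± 0.149, and *SKI*, by 1.24 ± 0.113) and 2 fell (*ID1*, by -1.43 ± 0.163, and *SMAD7*), beside 25.6% and 26.1% of all genes. The median log2 fold change of the members was -0.06 in NT cells and 0.46 in TAM cells, against 0.09 and 0.05 over all genes.

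Tamoxifen without TPL lowered *ID2* and *ID3* and left no call at the other 4. *ID3* fell by a log2 fold change of -3.88 ± 0.177 (adjusted p = 9.13e-05), from about 40 FPKM to under 3. *ID2* changed by -2.83 ± 0.224 (adjusted p = 0.000852). Both passed the study's thresholds, which 0.655% of all genes did, and at an adjusted p of 0.05 the shares were 3.39% lower and 3.46% higher. The values were 0.28 ± 0.222 for *ID1* (adjusted p = 0.554), 0.34 ± 0.332 for *SMAD7* (adjusted p = 0.65), 0.17 ± 0.159 for *SKI* (adjusted p = 0.626) and -0.29 ± 0.21 for *SKIL* (adjusted p = 0.517). The first 3 of these turned negative with *GAPDH* scaling. No member rose by edgeR, at an unadjusted p under 0.05 either, and DESeq2 and limma also called 0.

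With TPL present, TAM cells differed from NT cells at *ID1* and *ID3*. *ID1* was lower in TAM + TPL than in NT + TPL by a log2 difference of -1.52 ± 0.236 (adjusted p = 0.012), and *ID3* by -1.77 ± 0.163 (adjusted p = 0.0015). Of all genes, 4.21% were lower and 2.83% higher in this comparison. No member was higher by edgeR, with 0 at an unadjusted p under 0.05 and 0 by DESeq2 or limma, while DESeq2 called 4 members lower, *ID2* and *SKIL* besides the 2 above. The *ID1* call was lost without the first TAM + TPL library (adjusted p = 0.0947) or without the second (adjusted p = 0.11).

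The difference between the TPL effects was tested as an interaction. *ID3* passed, with a TPL effect higher in TAM than in NT cells by 2.11 ± 0.233 on the log2 scale (adjusted p = 0.0417), where 0.0885% of all genes passed in that direction and 0.0767% in the other. For *ID2* the difference was 2.26 ± 0.291 (adjusted p = 0.0523), and for *ID1* it was -1.80 ± 0.323 (adjusted p = 0.131). The *ID3* difference lay between 2.05 and 2.17 with any library left out, and its adjusted p then lay between 0.0521 and 0.205, so the call was lost without any of the 8 libraries while the size was kept. No member passed in the negative direction by edgeR, with 1 (*ID1*) at an unadjusted p under 0.05, 1 by DESeq2 and 0 by limma. Differences were -0.13 ± 0.48 for *SMAD7*, 0.08 ± 0.223 for *SKI* and -0.45 ± 0.296 for *SKIL*, with adjusted p of 0.961, 0.94 and 0.62.

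**Figure D3:**
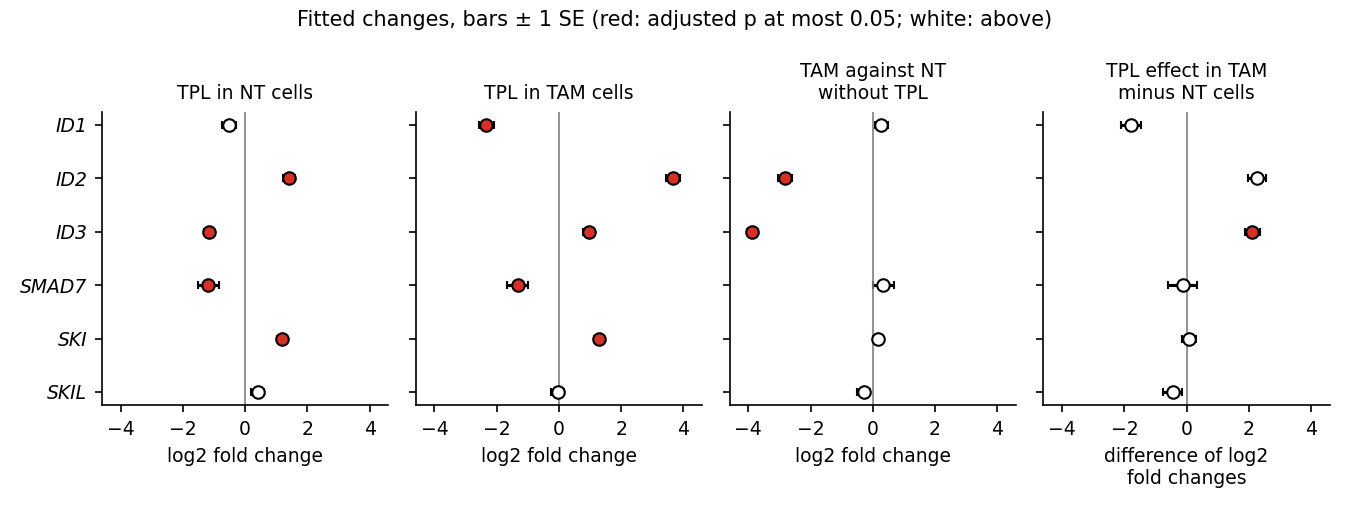
Fitted log2 fold changes with bars of ± 1 SE (x axis) of the 6 tested members (y axis) for TPL in NT cells, TPL in TAM cells, TAM against NT cells without TPL, and the difference of the TPL effects. Red points have an adjusted p of at most 0.05. *ID3* sits at -1.16 with TPL in NT cells and at 0.95 in TAM cells, and *SKI* sits at 1.2 and 1.28.

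RNAPII peaks over the TSS were compared across the 4 deposited lists, 1 per condition, which hold positions and no height. All peak names in a list carry the first replicate. The TAM list was named with a q cutoff of 0.1 and the other lists with a cutoff of 0.02, so a difference between TAM and another list cannot be told apart from the cutoff, and no test was possible. *ID1*, *ID2* and *SKIL* had a peak over the main TSS in all 4 lists, and *ID3* in all but TAM. That makes 4 of 8 members in NT, NT + TPL and TAM + TPL and 3 of 8 in TAM, beside 47.7%, 38.2%, 37.4% and 42.1% of 19881 protein-coding genes in the NT, NT + TPL, TAM + TPL and TAM lists. *ID4* and *SMAD6* had none in any list.

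The *ID2* peak was wider with TPL. It spanned 330 bases in NT (chr2:8822061-8822390), 774 in NT + TPL (chr2:8821943-8822716), 285 in TAM (chr2:8822078-8822362) and 613 in TAM + TPL (chr2:8821962-8822574). The wider peaks also took in a start of the antisense gene *ID2-AS1*. The ratio of widths with and without TPL was 2.35 in NT cells and 2.15 in TAM cells, at percentiles 97.2 and 91.4 of the 7316 and 6766 genes with a peak in both lists, whose medians were 0.877 and 1.04. *ID2* RNA also rose with TPL in both cell states. In the TAM pair the lists differ in cutoff as well as in TPL, and the 2 cannot be told apart.

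Where a list with TPL and its list without TPL both held a peak over the main TSS of *ID1*, *SKIL* or *ID3*, the peak with TPL was narrower. The *ID1* peak, which reaches past the gene and includes the start of a lncRNA (ENSG00000289875), spanned 4746 bases in NT (3095 with TPL) and 4826 bases in TAM (2871 with TPL). Its width ratios, 0.652 for NT and 0.595 for TAM, were at percentiles 28.9 and 13.5 of all genes with a peak in both lists. The *SKIL* peak spanned 1092 bases in NT (297 with TPL) and 1713 bases in TAM (267 with TPL), with width ratios of 0.272 in NT cells and 0.156 in TAM cells, at percentiles 5.49 and 0.99, although *SKIL* RNA did not pass the test. The *ID3* peak spanned 998 bases in NT, 391 in NT + TPL and 255 in TAM + TPL, with a ratio of 0.392 in NT cells at percentile 11.4. No *ID3* peak was listed in TAM, the group in which its RNA was lowest. For this absence and for the widths of the TAM pair, the different cutoff of the TAM list cannot be told apart from the treatment.

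*SMAD7* and *SKI* had peaks beside the main TSS and not over it. Listed peaks of *SMAD7* began 250 bases downstream in NT (190 bases wide) and 505 bases downstream in TAM (281 bases wide), and neither TPL list held one. *SKI* peaks ended 136 bases upstream of the TSS in the NT list, 160 in the list of NT cells with TPL and 132 in the TAM list, whereas in TAM + TPL a peak of 1984 bases began 79 bases downstream (chr1:2159837-2161820).

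**Figure D4:**
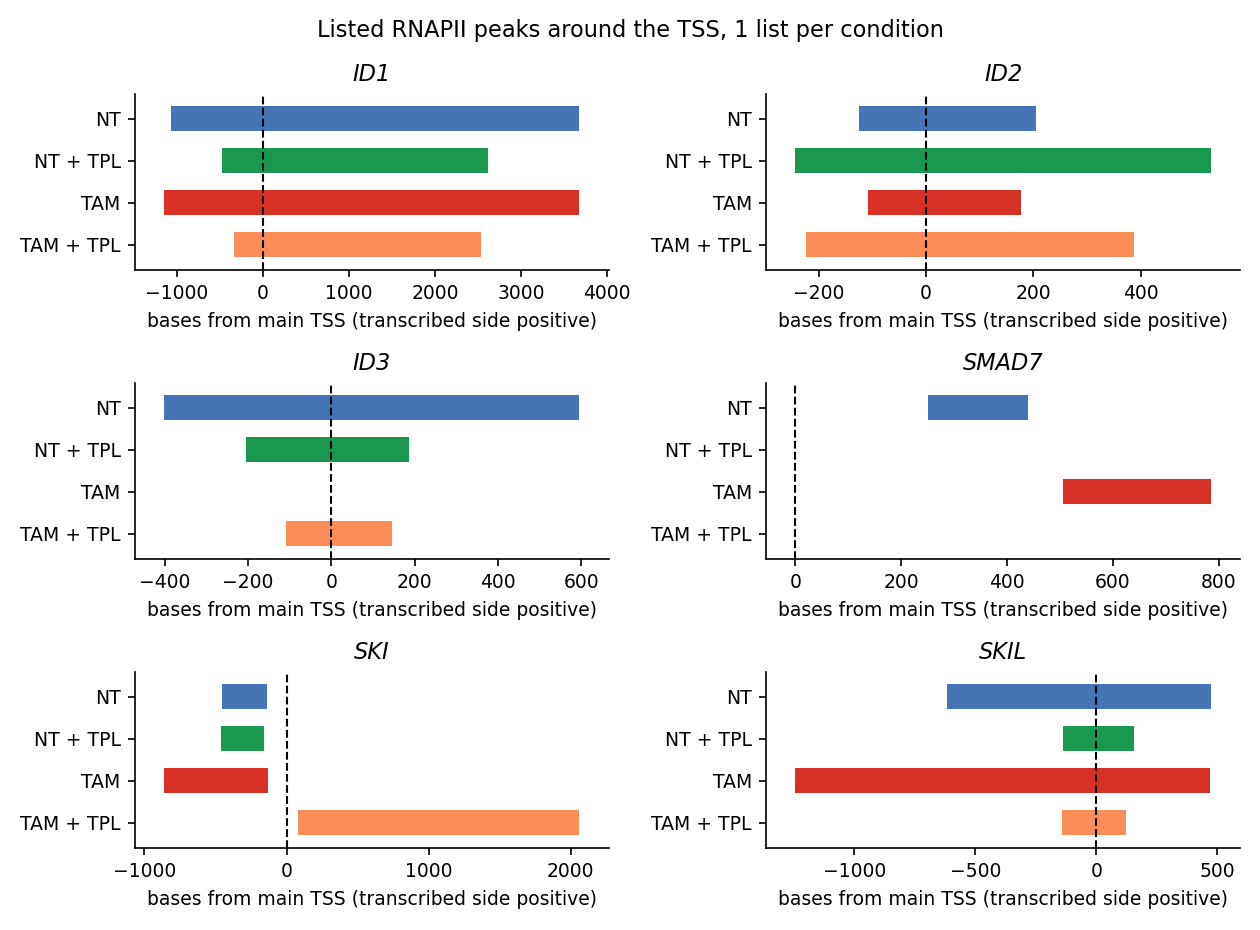
Extent of listed RNAPII peaks (bars) in bases from the main TSS (x axis, dashed line at 0, transcribed side positive) for 6 members in the NT, NT + TPL, TAM and TAM + TPL lists (y axis). The *ID2* bar is longer in both TPL lists (774 and 613 bases) than in NT and TAM (330 and 285 bases), and the *SKIL* and *ID1* bars are shorter with TPL in both cell states. The *ID3* bar is shorter with TPL in the NT pair, and in the tamoxifen pair it is present with TPL only.

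The rest of the TGF-beta and BMP pathway gives the setting of these genes. Of 75 genes in 7 lists, 67 were tested. With TPL, 7 rose and 24 fell in NT cells, where 17.2% of all genes rose and 19.8% fell, and 6 rose and 23 fell in TAM cells, where 14.3% and 18.6% did, with a median log2 fold change of -0.42 and -0.27 over the 67. With a library left out, the pathway genes that rose numbered between 5 and 7 in NT cells and between 2 and 10 in TAM cells, and those that fell between 13 and 26 and between 10 and 25. With upper quartile scaling 12 rose in NT cells. Among the ligands, *GDF15*, a stress-induced cytokine of the family, rose by 3.79 ± 0.388 in NT cells (adjusted p = 0.000811) and by 1.25 ± 0.339 in TAM cells (adjusted p = 0.0298). *BMP2*, a ligand that induces *ID* genes, changed by -1.34 ± 0.338 with TPL in NT cells (adjusted p = 0.0215) and by -2.41 ± 0.332 in TAM cells (adjusted p = 0.00261). It measured 1.53 and 1.27 FPKM in the NT libraries and 0.45 and 0.66 with TPL. In the TAM libraries it measured 4.91 and 4.73 FPKM, and 0.91 and 0.95 with TPL. The TAM libraries thus held the most *BMP2* and, at 97.76 and 102.52 FPKM, the most *ID1*, but little *ID2* or *ID3*. In TAM against NT cells without TPL, *BMP2* was higher by 1.80 ± 0.323 (adjusted p = 0.0207), a call lost when some single libraries were left out. *ID1* did not pass in that comparison, at 0.28 ± 0.222 (adjusted p = 0.554), and was at -0.18 with *GAPDH* scaling. *BMP2* and *ID1* both fell with TPL in TAM cells, and a link between *BMP2* and the *ID* genes was not tested. *INHBA*, the activin A subunit, fell in NT cells, from 4.30 and 3.51 FPKM to 0.00 and 0.61, and *GDF11* rose there by 1.21 ± 0.39 (adjusted p = 0.0471). With a library left out the adjusted p reached 0.161 for *GDF15* in TAM cells, 0.0827 for *BMP2*, 0.0985 for *INHBA* and 0.211 for *GDF11* in NT cells, which ended these calls.

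Of 12 receptors, 4 fell with TPL in each cell state and the others did not pass, beside falls of 19.8% and 18.6% of all genes. They included *ACVR1B*, the activin type I receptor, at -2.17 ± 0.239 in NT cells and -1.99 ± 0.23 in TAM cells (adjusted p = 0.00102 and 0.00137). *BMPR1A*, the type I receptor of BMP2, fell by a log2 fold change of -2.30 ± 0.272 and -1.56 ± 0.261 (adjusted p = 0.00129 and 0.00548), and *TGFBR2*, which binds TGF-beta, by -1.49 ± 0.371 and -1.60 ± 0.373 (adjusted p = 0.0206 and 0.0178). *ENG*, a coreceptor, fell in TAM cells (-0.56 ± 0.175, adjusted p = 0.0473), a call that was lost with upper quartile scaling (adjusted p = 0.187). Of the 6 SMADs that carry the signal, 3 fell in NT cells and 2 in TAM cells, beside the same 19.8% and 18.6%. *SMAD1*, which BMP receptors phosphorylate, changed by -1.18 ± 0.194 and -1.19 ± 0.192 (adjusted p = 0.00446 and 0.00466), and the shared partner *SMAD4* by -0.70 ± 0.198 and -0.67 ± 0.197 (adjusted p = 0.0304 and 0.0384). *SMAD5* fell in NT cells (-1.03 ± 0.198, adjusted p = 0.00813) and was at -0.44 ± 0.195 in TAM cells (adjusted p = 0.126). *SMAD2* was at -0.43 ± 0.17 and -0.51 ± 0.17 (adjusted p = 0.0896 and 0.0583). With a library left out the calls of *TGFBR2* and *SMAD4* ended in both cell states, with an adjusted p of up to 0.115 and 0.201, and those of *BMPR1A* in TAM cells, *SMAD5* in NT cells and *ENG* in TAM cells also ended, with up to 0.0504, 0.0503 and 0.25. The calls of *ACVR1B* and *SMAD1* were kept, with at most 0.0179 and 0.0418.

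Most genes on the list of ubiquitin ligases and nuclear corepressors fell with TPL, unlike *SKI*. The list also holds *PMEPA1*, *PPM1A* and *USP15*, which are neither ligases nor corepressors and fell in both cell states. Of the 13 tested, 10 fell in NT cells and 10 in TAM cells, beside 19.8% and 18.6% of all genes, among them the SMAD corepressors *TGIF1* (-1.72 ± 0.186 and -2.03 ± 0.191, adjusted p = 0.000961 and 0.000707) and *TGIF2* (-1.51 ± 0.182 and -2.84 ± 0.192, adjusted p = 0.00137 and 0.000328). *PMEPA1*, a membrane protein that sequesters SMAD2 and SMAD3, fell by a log2 fold change of -1.69 ± 0.185 and -2.25 ± 0.193 (adjusted p = 0.00102 and 0.000538). *WWP1*, a ubiquitin ligase, changed by -1.84 ± 0.242 and -1.41 ± 0.238 (adjusted p = 0.00193 and 0.00559). With any library left out, all of these calls of *TGIF1*, *TGIF2*, *PMEPA1* and *WWP1* were kept. The median of this list was -0.71 in NT cells and -0.85 in TAM cells. *NEDD4L*, a ligase named here after its values were seen, rose by 2.10 ± 0.141 in NT cells (adjusted p = 0.000256), whereas its value was -0.61 ± 0.134 in TAM cells, a fall (adjusted p = 0.0144).

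Outside the cell, *FST* (follistatin), which traps activins, fell by a log2 fold change of -5.85 ± 0.277 in NT cells (adjusted p = 0.000178) and -2.43 ± 0.224 in TAM cells (adjusted p = 0.000671). It measured 26.50 and 21.22 FPKM in the NT libraries, 0.43 and 0.38 with TPL, 10.11 and 12.95 in the TAM libraries and 2.11 and 2.54 with TPL. *BAMBI*, a pseudoreceptor that blunts TGF-beta and BMP signals, rose in NT cells by 2.24 ± 0.21 (adjusted p = 0.000613) and was at 0.01 ± 0.194 in TAM cells (adjusted p = 0.943), where it was already higher without TPL by 2.15 ± 0.21 (adjusted p = 0.00183). *LTBP3*, which holds latent TGF-beta, rose in NT cells by 0.65 ± 0.123 (adjusted p = 0.00769) and was at -0.09 ± 0.129 in TAM cells (adjusted p = 0.6), and its call in NT cells ended without the second NT library (adjusted p = 0.0551). *GREM1*, a BMP antagonist below 1 FPKM on average that is named here after its values were seen, rose in TAM cells by 4.63 ± 1.21 (adjusted p = 0.0319) and was at 4.92 ± 1.61 in NT cells (adjusted p = 0.0579), with a difference between the cell states of -0.29 (adjusted p = 0.851). *DCN*, a matrix protein that binds TGF-beta, was at 0.46 ± 0.191 and 0.18 ± 0.191 (adjusted p = 0.0982 and 0.497).

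SMAD target genes had no common direction with TPL. Of 12 tested, 2 rose and 1 fell in NT cells, where 17.2% of all genes rose and 19.8% fell. In TAM cells 4 rose and 2 fell, beside 14.3% and 18.6% of all genes. *SNAI1*, a repressor of E-cadherin, rose by 3.71 ± 0.398 and 2.05 ± 0.359 (adjusted p = 0.000956 and 0.00634), and *CDKN1A*, the CDK inhibitor p21, by 1.56 ± 0.174 and 1.02 ± 0.172 (adjusted p = 0.00105 and 0.0056). *JUNB*, an AP-1 subunit, fell by a log2 fold change of -1.40 ± 0.168 and -1.70 ± 0.169 (adjusted p = 0.00137 and 0.000827). Against NT cells, TAM cells without TPL had 6 of these 12 lower, beside 3.39% of all genes. The list median was -1.07, beside -0.03 over all genes. Of the members, *ID2* and *ID3* fell in the same comparison, whereas *ID1*, *SMAD7*, *SKI* and *SKIL* did not pass. Among the 12 ligands tested, 3 were higher there (*BMP2*, *GDF15* and *TGFB1*) and 0 lower, beside 3.46% and 3.39% of all genes. Over the 67 pathway genes 10 were lower there, and between 3 and 13 with a library left out. *TGFBI*, a matrix protein named for its induction by TGF-beta, was lower by -1.78 ± 0.13 on the log2 scale (adjusted p = 0.000614), from 877.41 and 1021.52 FPKM in NT to 268.08 and 277.92 in TAM. With TPL it changed by -0.76 ± 0.128 in TAM cells (adjusted p = 0.00541, and 0.0526 without the first TAM + TPL library) and was at -0.13 ± 0.126 in NT cells (adjusted p = 0.454).

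Of the bHLH factors that ID proteins bind or oppose, 5 of 7 were tested, and the same 3 fell with TPL in each cell state, beside 19.8% and 18.6% of all genes. *TCF3*, which encodes E12 and E47, changed by -1.58 ± 0.199 and -1.34 ± 0.197 (adjusted p = 0.00159 and 0.00334), and *TCF12*, also an E protein, by -2.11 ± 0.347 and -1.07 ± 0.331 (adjusted p = 0.00455 and 0.0462). The call of *TCF12* in TAM cells was lost with each of the other scalings of the libraries and without either TAM or either TAM + TPL library (adjusted p of up to 0.217). *TWIST1*, a partner of E proteins, was at -2.18 ± 0.447 and -2.33 ± 0.45 (adjusted p = 0.0102 and 0.00908), and its call in TAM cells ended without the first TAM + TPL library (adjusted p = 0.0618). *HES1*, a repressor of the family, was at -0.61 ± 0.211 and -0.14 ± 0.211 (adjusted p = 0.0595 and 0.63). *ID2* RNA therefore rose with TPL while that of 3 of these 5 fell, and *ID1* RNA fell with them in TAM cells.

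**Figure D5:**
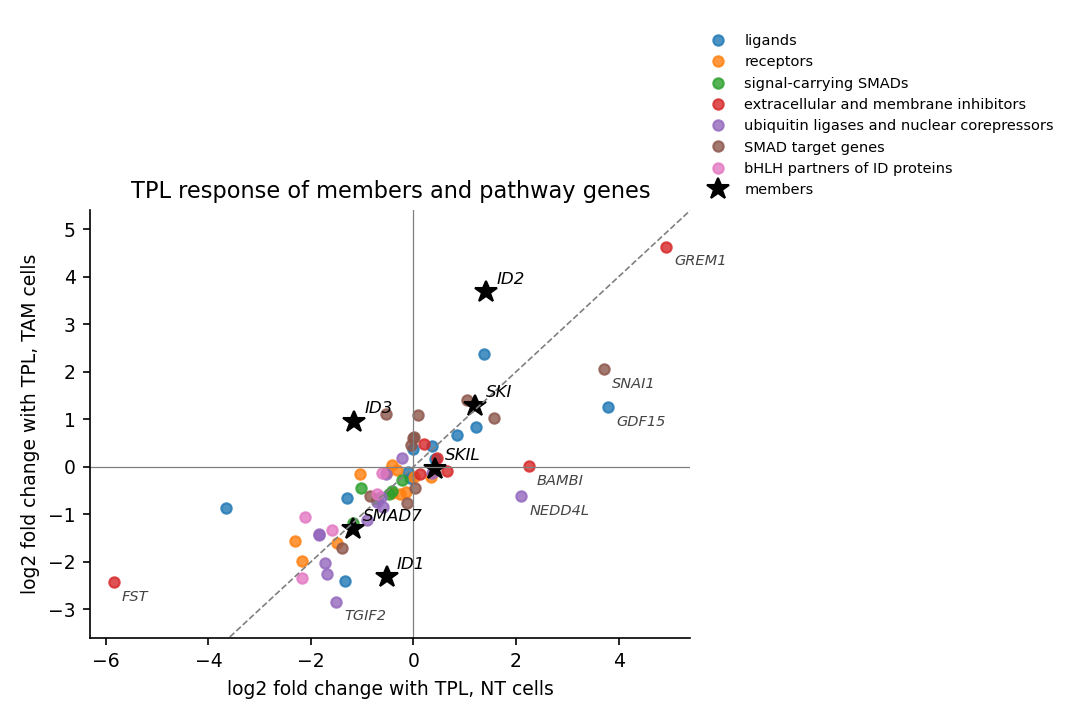
Log2 fold change with TPL in NT cells (x axis) and in TAM cells (y axis) of the 6 tested members (stars) and 67 pathway genes (points, coloured by list), with the dashed line marking equal changes. *ID2* (1.42 and 3.68) and *ID3* (-1.16 and 0.95) lie above the line and *ID1* (-0.52 and -2.33) below it. The 2 axes share no library.

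The genes with profiles most like each member were sought by Pearson's r of log2 CPM over the 8 libraries, as a description of libraries that share treatments. For *ID2* they were *MLEC* (r = 0.994) and *UNC5B* (r = 0.990), and *UNC5B* was at 0.94 and 0.86 FPKM in TAM and 7.05 and 7.84 in TAM + TPL. For *ID3* they were *DSEL* (r = 0.993) and *PDLIM5* (r = 0.983). On log2(FPKM + 1) the r of *PDLIM5* was 0.723, and it measured 61.38 and 69.27 FPKM in NT and 69.84 and 89.03 with TPL, a pair of groups in which *ID3* fell. The closest to *ID1* were *SIRT6* (r = 0.987) and *CENPO* (r = 0.985). *LRRC41* (r = 0.996) and *MSL1* (r = 0.991) were closest to *SMAD7*, *FBXO10* (r = 0.993) and *ZKSCAN1* (r = 0.992) to *SKI*, and *TCTN2* (r = 0.964) and *PGAP3* (r = 0.945) to *SKIL*. No *ID* gene was among the closest of another. Between *ID1* and *ID2* r was -0.61, between *ID1* and *ID3* it was 0.17 and between *ID2* and *ID3* it was 0.57, over the same 8 libraries.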

How the data were processed

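RNA-Seq was measured in 8 libraries of 4 groups. The authors enriched poly-A RNA, aligned filtered reads with Bowtie2 and estimated expression with RSEM. The deposited expected counts are RSEM estimates of each gene's reads, not normalized, and FPKM as deposited are the authors' values from the same alignments. Genes absent from a file were taken as 0. The peak lists, with positions that the authors called over input with MACS (version 1.4.2) on hg19, were deposited without scores. Their names refer to the TSS, and some listed peaks near members, such as those of *SKI*, hold none of that gene in the annotation used here. The study's methods name SOAP2 as the ChIP-Seq aligner and the submitters' processing notes name BWA. ChIP-Seq signal and replicates were not used here.

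After rounding of the expected counts, edgeR 4.0.16 (R 4.3.3) was run with TMM factors, which lay between 0.975 and 1.03, with filterByExpr per group and with the quasi-likelihood test in 1 fit of 4 groups. Benjamini-Hochberg adjustment covered 16948 genes. The common dispersion was 0.099. Symbols came from the gene ID for 21077 of 23604 genes and from an accession for 2407, and 120 had none. The p-values set a difference of group means against a spread between replicates. That spread was pooled over the 4 groups of 2 libraries and drawn towards that of other genes. The members and lists were chosen with earlier results of these data known. The rule for named pathway genes was up to 4 per list with a mean of at least 1 FPKM, by the smallest p of the TPL effect averaged over NT and TAM cells, and for likeness the 2 genes with the highest r among genes with a mean of at least 1 FPKM, on log2 CPM with a prior count of 2. Main TSSs were those of Ensembl canonical transcripts in GENCODE release 44 on build 37. RefSeq promoters were found for 7 of the 8 genes. Replicates of a group differed by more than sampling noise, with a chi-square per degree of freedom between 9.93 and 33.1. The alternatives were DESeq2 1.42.0, its size factors in edgeR, library size, upper quartile and *GAPDH* scaling, no filter, at least 10 counts in every library, a replicate block, a fit of only the groups compared, limma 3.58.1 on log2(FPKM + 1) and log2(FPKM + 0.1), the study's thresholds, other distances from the TSS and leaving out each library. One item of the marker lists is not reported here. The scripts were tested on simulated data. Summaries used Python 3.11.15 with numpy 2.4.6 and pandas 2.3.3, and plots matplotlib 3.10.9.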

Additional observations from a re-analysis of the deposited data

Results flagged for a closer look

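The response to TPL differed between TAM and NT cells, by the test of the difference itself, at *ID3* among the members and at *FST* and *NEDD4L* among the pathway genes. The difference of log2 fold changes, TAM minus NT, was 2.11 for *ID3* (adjusted p = 0.0417), 3.42 for *FST* (adjusted p = 0.0378) and -2.71 for *NEDD4L* (adjusted p = 0.0192). The *ID3* call was lost with *GAPDH* scaling (adjusted p = 0.0724), with the replicate block (adjusted p = 0.109) and with any library left out. The *ID2* difference, 2.26 ± 0.291, lay just past the threshold (adjusted p = 0.0523) and passed in some of the other settings. *ID3* moved in opposite directions in the 2 cell states, as *NEDD4L* did, whereas *FST* fell in both and by less in TAM cells. *NEDD4L* was also higher in TAM than in NT cells without TPL, by a log2 fold change of 2.84 ± 0.144 (adjusted p = 0.000128). With any 1 library left out, 0 pathway genes passed in the positive direction by edgeR, so the call of *FST* was lost, and 0 passed in the negative direction without either NT, TAM or TAM + TPL library, so that of *NEDD4L* was lost there. DESeq2 called 2 pathway genes in the positive and 6 in the negative direction.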

How the results depend on the processing

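With 2 libraries per group, calls near the threshold moved with the setting, and directions of called members did not. At the study's thresholds the members called higher and lower were 0 and 0 for NT cells given TPL, 1 and 1 for TAM cells, 2 and 1 for the average, 0 lower for TAM against NT cells with TPL, and 0 for the interaction. Members lower with TPL in NT cells numbered 1 with upper quartile scaling, 3 with *GAPDH* scaling, which added *ID1*, 1 in a fit of only the groups compared and between 1 and 2 with a library left out. Members higher there numbered 3 with upper quartile scaling, which added *SKIL*. In TAM cells the lower count lay between 1 and 2 with a library left out. Members lower in TAM than in NT cells with TPL numbered 4 by DESeq2, 1 in a fit of only the groups compared and between 1 and 2 with a library left out. Positive interactions numbered 2 by DESeq2, upper quartile scaling, no filter, at least 10 counts and both limma fits, as *ID2* then passed. They numbered 0 with *GAPDH* scaling and with any library left out. Negative interactions numbered 1 by DESeq2, 1 with at least 10 counts and between 0 and 1 with a library left out. Peaks with the main TSS at least 200 bases inside covered 2 members in NT + TPL and 2 in TAM + TPL, *ID1* and *ID2* in both. The same rule kept *ID1* and *SKIL* in TAM, and *ID1*, *ID3* and *SKIL* in NT. Within 1000 bases of the TSS, *SKI* was added in every list and *SMAD7* in NT and TAM, which gave 5 members in TAM. Shares of all genes under these 2 rules were not taken. In a fit of only the groups compared, 14 pathway genes were lower with TPL in NT cells and 11 higher in TAM cells, and with *GAPDH* scaling 16 were lower in TAM than in NT cells. A lone library was assumed to vary like the other groups. On log2(FPKM + 1), 6 of the 12 most alike genes were the same.

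Replicate numbers in the labels did not pair the samples, with correlations of deviations between -0.135 and 0.0501. The replicate block left 1 member lower with TPL in NT cells and 0 positive interactions. The crossed block, with the NT numbers exchanged and chosen after seeing the data, also gave 0 positive interactions.

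Signs turned only for values that did not pass the test. With *GAPDH* scaling TAM against NT was -0.18 for *ID1*, -0.13 for *SMAD7* and -0.31 for *SKI*, the *SMAD7* interaction was 0.14, the averaged *SKIL* change -0.06 and *BAMBI* with TPL in TAM cells -0.09. With upper quartile scaling the averaged *ID3* change was 0.13, and TPL in TAM cells gave 0.20 for *SKIL*, 0.15 for *LTBP3* and 0.10 for *HES1*, and *TGFBI* in NT cells 0.09. *SKIL* in TAM cells was 0.01 by library size and 0.04 with at least 10 counts, and *BAMBI* -0.01 without a filter. With a library left out, the *SMAD7* interaction lay between -0.50 and 0.36, the *SKI* interaction between -0.05 and 0.24, and *SMAD7* in TAM against NT cells with TPL between -0.14 and 0.72. TPL in TAM cells then gave -0.16 to 0.08 for *SKIL*, -0.21 to 0.22 for *BAMBI*, -0.02 to 0.39 for *DCN* and -0.43 to 0.11 for *HES1*. The causes were not tested.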
